A study of Mus musculus with 24 samples.

Results

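The genes of 10 small leucine-rich proteoglycans were followed in mouse digit tips after amputation: Dcn, Bgn, Aspn, Fmod, Lum, Prelp, Kera, Omd, Ogn and Podn. They were taken by name, and all 10 of them were present among the 15055 genes of the deposited table. The libraries came from hind limb digit tips of C57BL/6 mice aged 10 to 12 weeks, an inbred laboratory strain, with bone, cartilage, marrow, dermis and epidermis in one sample. Digits had been cut through the tip (distal amputation) or nearer the body (proximal amputation), and tissue was taken at 12, 14 or 21 days after it. The 6 groups are distal 12, distal 14, distal 21, proximal 12, proximal 14 and proximal 21 days, with 4 libraries in each and 24 in all. No transgene or drug is named in the labels. Nor do they name the animal behind each library, and the p-values therefore rest on a spread that may be partly technical. Adult mice are known to regenerate the end of a digit after a distal cut, while the stump scars after a proximal one.

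Small leucine-rich proteoglycans are secreted matrix proteins with a core of leucine-rich repeats that lies along collagen fibrils and regulates their assembly and width. Most carry chondroitin, dermatan or keratan sulfate chains, and several bind growth factors of the transforming growth factor beta (TGF-beta) family. Decorin (Dcn), biglycan (Bgn) and asporin (Aspn) form class I. Fibromodulin (Fmod), lumican (Lum), prolargin (Prelp), keratocan (Kera) and osteomodulin (Omd) form class II, osteoglycin (Ogn) belongs to class III and podocan (Podn) to class V. In connective tissue, bone and tendon they are made mainly by fibroblasts, osteoblasts and tenocytes.

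The genes sit in clusters of the mouse genome (build mm10, GENCODE M21 annotation). On chromosome 13, Aspn (49544443 to 49567565), Omd (49582462 to 49592822) and Ogn (49608046 to 49624501) follow each other on the plus strand, with Ecm2, another matrix gene of the leucine-rich repeat family, 11.7 kb before Aspn. The gaps are 14.9 kb between Aspn and Omd and 15.2 kb between Omd and Ogn, with no protein-coding gene lying wholly in between. All of these genes overlap the minus-strand gene Cenpp, which shares 7 exonic bases with Aspn. On chromosome 10, Dcn (97479609 to 97518143), Lum (97565128 to 97572703) and Kera (97606879 to 97613692) form a second run on the plus strand. On chromosome 1, Prelp (133910304 to 133921414, minus strand) and Fmod (134037254 to 134048277, plus strand) are 116 kb apart. Podn lies alone on chromosome 4 (108014791 to 108096445, minus strand) and Bgn on chromosome X (73483602 to 73495933, plus strand). Prelp shares 350 exonic bases, 9.68% of its exons, with the antisense transcript Gm15851, and since no source used here says whether reads were counted by strand, the Prelp value may hold antisense reads.

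Promoter sequences are shown for the chromosome 13 neighbours Aspn, Omd and Ogn, which had the largest rises of the 10 genes between 12 and 14 days after distal amputation, and for Bgn, a class I gene on another chromosome that was also higher in that comparison. They are RefSeq sequences of build GRCm38.p6, 250 bases before to 50 bases after the annotated start, of which 8 of the 10 genes had an entry. Capitals mark matches, on either strand, to 6 short motifs. These are TATAAA of the core promoter, GGGCGG of SP1 factors, TGANTCA of AP-1, TGTGGT of RUNX factors, GGAATG of TEAD factors and GTCTG of SMAD factors.
Aspn, chr13:49544193-49544492, plus strand: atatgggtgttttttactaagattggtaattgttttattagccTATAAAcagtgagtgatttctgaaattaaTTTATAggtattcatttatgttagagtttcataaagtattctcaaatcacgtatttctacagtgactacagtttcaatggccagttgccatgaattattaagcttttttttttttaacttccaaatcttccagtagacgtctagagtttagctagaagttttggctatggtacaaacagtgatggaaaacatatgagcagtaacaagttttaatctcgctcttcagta
Omd, chr13:49582212-49582511, plus strand: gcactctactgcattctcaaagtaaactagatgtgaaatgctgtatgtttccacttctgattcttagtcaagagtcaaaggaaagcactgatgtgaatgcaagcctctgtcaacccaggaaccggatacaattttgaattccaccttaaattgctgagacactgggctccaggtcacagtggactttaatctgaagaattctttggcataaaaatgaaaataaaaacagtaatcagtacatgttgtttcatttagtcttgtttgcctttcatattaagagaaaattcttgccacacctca
Ogn, chr13:49607765-49608064, plus strand: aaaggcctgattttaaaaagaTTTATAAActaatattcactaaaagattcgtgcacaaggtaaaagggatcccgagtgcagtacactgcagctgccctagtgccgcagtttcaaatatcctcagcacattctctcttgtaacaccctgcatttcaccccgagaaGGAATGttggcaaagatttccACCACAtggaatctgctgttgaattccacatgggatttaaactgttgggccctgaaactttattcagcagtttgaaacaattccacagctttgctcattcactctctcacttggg
Bgn, chrX:73483351-73483650, plus strand: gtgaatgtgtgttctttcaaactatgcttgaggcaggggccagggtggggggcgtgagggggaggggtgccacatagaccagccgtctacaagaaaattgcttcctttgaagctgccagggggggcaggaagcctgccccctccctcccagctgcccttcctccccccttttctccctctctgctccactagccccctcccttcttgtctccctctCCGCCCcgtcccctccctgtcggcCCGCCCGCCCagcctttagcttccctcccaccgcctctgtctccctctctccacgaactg
The chromosome 13 promoters were poor in G and C, at 31.0% for Aspn, 37.7% for Omd and 42.3% for Ogn. The median over all 32851 RefSeq promoters was 52.7%, and Bgn had 63.7%. Kera, which was not called for distal 14 against 12 days, had 41.0%. Fmod had 51.0%, Prelp 55.3% and the Podn entries 77.0% and 63.0%. Aspn held 2 matches to TATAAA and Ogn 2 overlapping ones, a motif found in 13.6% of all promoters. All of these matches lay nearer the upstream end of the window than the annotated start. In both genes 1 of the 2 was on the opposite strand. Whether any of them acts in the core promoter was not tested. Ogn also held 1 TGTGGT (16.8% of all promoters) and 1 GGAATG (14.7%). Bgn held 3 GGGCGG, 2 of them overlapping, against 35.7% of all promoters with at least one. None of the 6 motifs was found in the Omd window, and neither TGANTCA (7.81%) nor GTCTG (49.6%) in any of the 4 windows shown. A match is a description of the letters, not a site or a cause.

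The deposited values were taken as normalised and rounded, although no label or header records such a step, and sequencing depth is unknown. Table totals ran from 15.3 to 19.4 in units of 1e+06. Markers of the labelled tissues were checked in 9 lists, and all the measured marker genes had values above 0 in some library. Summed per kilobase of exon, keratinocyte markers lay between 97720 and 334966 over the libraries and connective tissue fibroblast markers between 14481 and 98688. Tenocyte markers lay between 356 and 1296, and erythroid and marrow markers between 113 and 20381. Mpo and Elane of the erythroid and marrow list and Matn1 of the chondrocyte list were absent from the deposited table. The erythroid and marrow sum therefore rests on globin genes and Alas2 and does not show marrow as such. In bulk tissue, fewer cells of a type and less RNA per cell cannot be told apart, which holds for every difference given here.

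Per kilobase of exon, Lum was the highest of the 10 genes in all 6 groups and Podn the lowest. Lum averaged 3912 ± 933, 9240 ± 1432 and 4418 ± 1163 per kilobase at 12, 14 and 21 days after distal amputation, and 4540 ± 537, 4613 ± 645 and 2030 ± 432 after proximal amputation (SD, n = 4 each). Podn averaged between 13.9 ± 1.91 (distal 21 days) and 39.5 ± 5.73 per kilobase (proximal 12 days). Lum encodes the keratan sulfate proteoglycan lumican of cornea, skin and tendon, and Podn encodes podocan, first described in the kidney. In the proximal groups Aspn came second, at 3520 ± 505, 2415 ± 377 and 1328 ± 66.8 per kilobase at 12, 14 and 21 days, and its libraries overlapped those of Lum at 12 and 21 days. In the distal groups Aspn averaged 726 ± 215, 2593 ± 632 and 942 ± 151 per kilobase at 12, 14 and 21 days, below Lum and 3 others at 12 days and next to Lum at 14 days.

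Bgn, Fmod, Dcn and Aspn made up the next tier after Lum, and several neighbours among them did not differ beyond their spread. At distal 12 days Fmod (1431 ± 265), Bgn (1278 ± 153), Dcn (877 ± 193) and Aspn formed a chain in which each overlapped the next. At proximal 12 days Bgn (2577 ± 167) overlapped Fmod (2350 ± 593), and both lay above Dcn (1001 ± 81.8). Omd and Ogn followed in every group, Omd at 222 to 833 and Ogn at 116 to 433 in group means per kilobase. Their libraries overlapped in 5 of the 6 groups and not at distal 14 days. Prelp (46.8 to 134) and Kera (15.5 to 66.3) came next in every group, in that order. Kera is known as a corneal gene, and it overlapped Podn in 5 of the 6 groups.

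**Figure D1:**
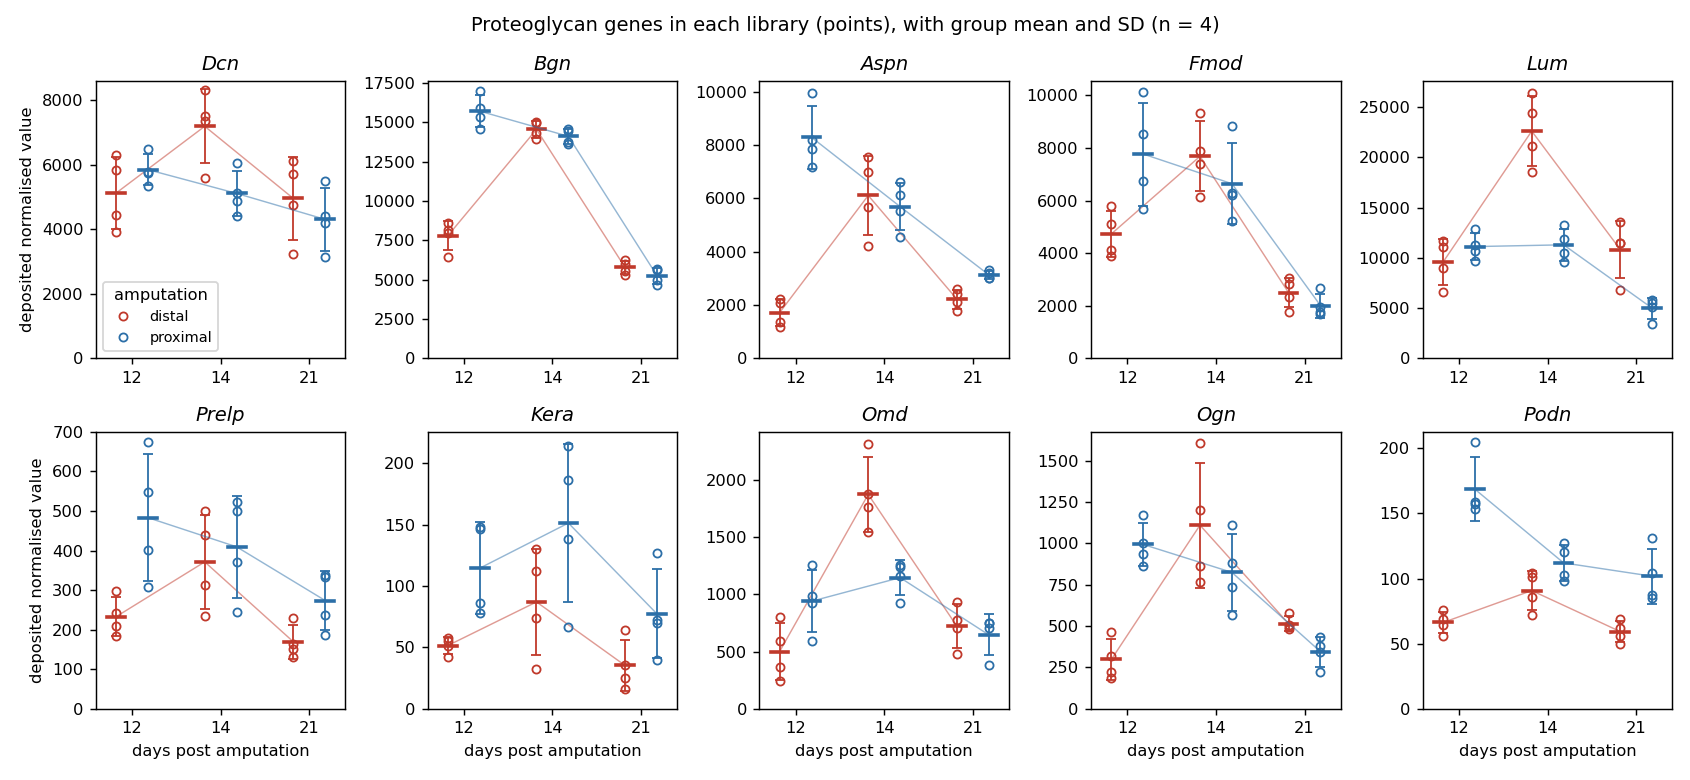
Deposited normalised values of the 10 genes in each library (open points) against days post amputation, which are spaced evenly and not to scale, with group means as bars and SDs as whiskers (n = 4) for distal (red) and proximal (blue) amputation. The distal 12 day libraries of Aspn lie between 1180 and 2204, below all proximal 12 day libraries at 7181 to 9959, and the distal 14 day libraries of Lum lie between 18529 and 26458, above all proximal ones at 9629 to 13230.

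At 12 days, 7 of the 10 genes were lower after distal than after proximal amputation and none was higher (limma on log2 values, Benjamini-Hochberg adjusted p under 0.05 over all genes). Among all genes 20.3% were called on that day, 9.25% higher and 11.0% lower. All 10 log2 changes were negative, with a median of -1.01 against -0.03 over all genes. Libraries of the groups did not overlap for 6 of the 10, which holds for 23.0% of all genes. Aspn, Ogn, Podn, Bgn, Prelp, Omd and Fmod were the called genes, across classes I, II, III and V.

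Aspn encodes asporin, a class I protein without the usual sugar chain that binds collagen and TGF-beta. Its values were 1374, 2204, 2076 and 1180 in the distal 12 day libraries, against 8167, 7841, 7181 and 9959 in the proximal ones. Every distal library lay far below every proximal one, a 4.98-fold difference (log2 change -2.32 ± 0.19 SE, adjusted p = 5.81e-08). The neighbour Ogn, the gene of osteoglycin or mimecan, stood at 188, 462, 320 and 224 in the distal libraries and at 1005, 1172, 935 and 864 in the proximal ones. Again the groups did not overlap, and Ogn was 3.51-fold lower (log2 change -1.81 ± 0.26, adjusted p = 4.05e-05). Omd, the gene of osteomodulin, a keratan sulfate proteoglycan of bone, had 242, 804, 589 and 366 in the distal libraries against 1253, 594, 987 and 925 in the proximal ones. Here distal replicate 2 lay above proximal replicate 2, and the log2 change was -1.0 ± 0.30 (adjusted p = 0.0202). Leaving out replicate 1 (-0.70) or 4 (-0.90) of the distal group ended that call, as did replicate 1 (-0.85) or 3 (-0.96) of the proximal group, with adjusted p between 0.0506 and 0.0918. It also ended in a fit of only the groups compared (adjusted p = 0.0757). Ecm2, the gene before Aspn on chromosome 13, averaged 211 ± 64.9 in distal and 766 ± 49.8 in proximal libraries (log2 change -1.90 ± 0.22, adjusted p = 3.57e-06).

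Bgn encodes biglycan, a class I proteoglycan abundant in bone. Bgn stood at 8162, 8585, 7977 and 6445 in the distal 12 day libraries, against 15891, 17017, 14595 and 15364 in the proximal ones. The groups were far apart relative to their spread, with a 2.03-fold lower level (log2 change -1.02 ± 0.09, adjusted p = 8.2e-08). Podn was at 76, 56, 64 and 69 in distal libraries and at 159, 153, 205 and 157 in proximal ones. It was lower by log2 -1.33 ± 0.16 (adjusted p = 3.95e-06), with no overlap. Bgn, Aspn, Ogn and Podn kept their call in every alternative setting that was run.

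The class II genes Prelp and Fmod were called as well. Prelp, the gene of prolargin, a basic collagen-binding protein, had 297, 209, 183 and 242 in distal libraries and 401, 673, 549 and 309 in proximal ones. The highest distal library lay just under the lowest proximal one (log2 change -1.01 ± 0.28, adjusted p = 0.0135), and without proximal replicate 2 the change was -0.83 (adjusted p = 0.0546). Fmod, the gene of fibromodulin, which is needed for normal tendon fibrils in the mouse, had 5784, 4135, 5103 and 3896 in distal libraries and 10121, 6749, 8531 and 5680 in proximal ones. Distal replicate 1 lay above proximal replicate 4, and the log2 change was -0.70 ± 0.20 (adjusted p = 0.0177). The Fmod call was lost on leaving out replicate 2 (-0.64) or 4 (-0.61) of the distal group, and also replicate 1 (-0.56) or 3 (-0.64) of the proximal group, with adjusted p between 0.0511 and 0.0664.

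The chromosome 10 genes Kera, Lum and Dcn were not called at 12 days. Kera had 42, 58, 51 and 55 in distal libraries and 146, 78, 148 and 86 in proximal ones, which did not overlap (log2 change -1.09 ± 0.44, adjusted p = 0.085). Lum was at 8999, 11630, 11078 and 6602 in distal libraries and at 12840, 9695, 11234 and 10687 in proximal ones, and overlapped (log2 change -0.24 ± 0.20, adjusted p = 0.425). Dcn, the gene of decorin, the best known collagen-binding member of the family, was at 6290, 5828, 4452 and 3905 in distal libraries and at 5783, 5747, 5346 and 6495 in proximal ones (log2 change -0.21 ± 0.19, adjusted p = 0.451). The difference between these genes and the called ones was not tested.

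Markers of some cell types, though not of all, were also lower at 12 days after distal than after proximal amputation. Of 6 connective tissue fibroblast markers 3 were lower (Pdgfra, Pdgfrb and Col3a1), and their sum per kilobase was 26772 to 45285 in distal and 51859 to 70310 in proximal libraries. Of 4 tenocyte markers 3 were lower (Scx, Tnmd and Thbs4), with sums of 448 to 609 in distal and 901 to 1296 in proximal libraries. Macrophage sums were 1558 to 1957 in distal and 2104 to 3791 in proximal libraries, with 2 of 5 markers lower, and of 5 chondrocyte markers 2 were lower and 1 higher. Keratinocyte sums overlapped, at 176492 to 212386 in distal and 179911 to 334966 in proximal libraries, with 1 of 6 markers lower. None of the osteoblast, osteoclast, endothelial or erythroid markers was called on that day. The median log2 changes of these lists were 0.61, 1.13, 0.07 and 0.76 in that order, against -0.03 over all genes. The part of these shifts in the proteoglycan result was not tested.

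**Figure D2:**
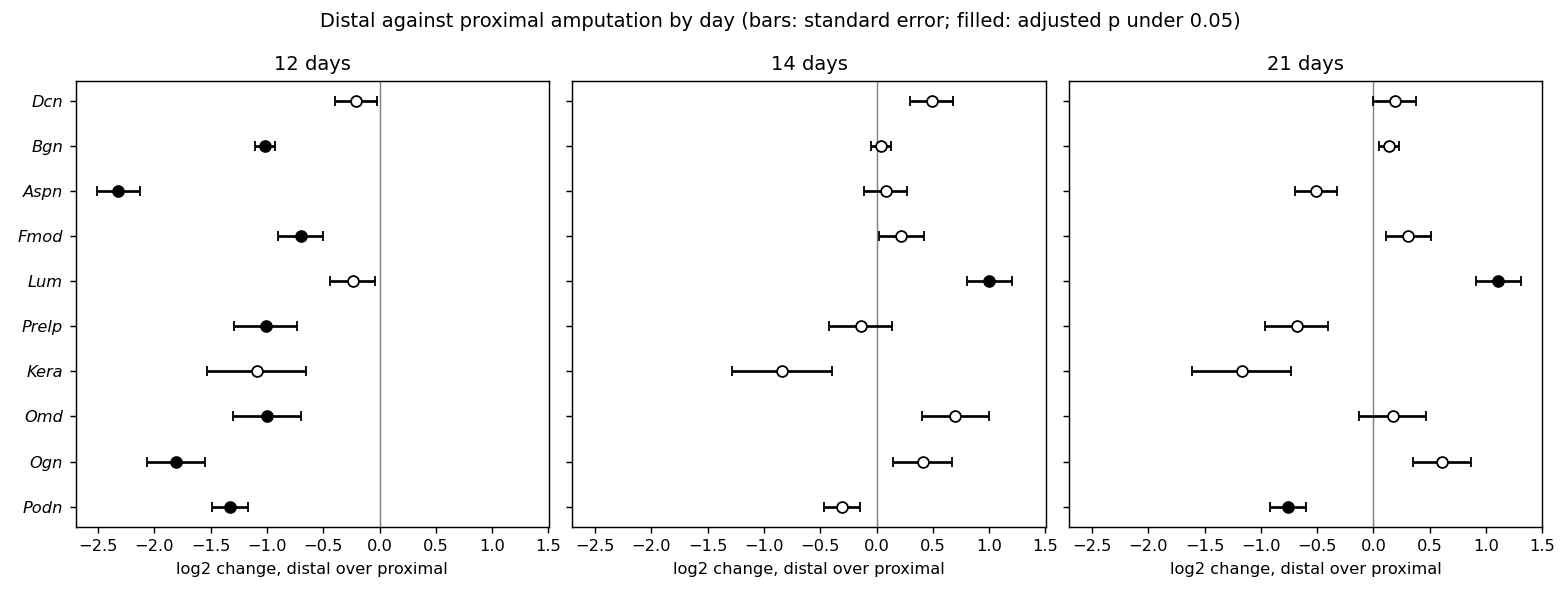
Log2 change of each gene, distal over proximal amputation, at 12, 14 and 21 days (points) with its standard error (bars), filled where the limma adjusted p is under 0.05. At 12 days all points lie left of 0, down to -2.32 for Aspn, and at 14 and 21 days Lum lies at 1.00 and 1.11.

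At 14 days Lum was the 1 gene called, higher after distal amputation, and no gene was called lower, against 5.39% of all genes called, 3.06% higher and 2.32% lower. Lum stood at 24384, 26458, 18529 and 21106 in the distal 14 day libraries, against 11831, 9629, 13230 and 10479 in the proximal ones. The groups did not overlap, and the level was 2.0-fold higher (log2 change 1.00 ± 0.20, adjusted p = 0.00958). The median log2 change of the 10 genes was 0.15, against 0 over all genes. Groups did not overlap for 2 genes, Lum and Omd, as for 11.3% of all genes. Omd had 1873, 2318, 1543 and 1760 in distal libraries and 1238, 926, 1258 and 1163 in proximal ones, and its log2 change of 0.70 ± 0.30 did not pass (adjusted p = 0.176).

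Aspn and Bgn lay close together between levels at 14 days, and Ogn did not pass. Aspn was at 6981, 7544, 4203 and 5687 in distal libraries, against 6594, 6111, 5504 and 4534 in proximal ones, overlapping (log2 change 0.08 ± 0.19, adjusted p = 0.854). Bgn was at 13944, 15025, 14311 and 14948 in distal libraries, against 13623, 14602, 14480 and 13760 in proximal ones (log2 change 0.04 ± 0.09, adjusted p = 0.82). Ogn was at 1605, 1204, 769 and 865 in distal libraries, against 882, 1113, 738 and 568 in proximal ones (log2 change 0.41 ± 0.26, adjusted p = 0.39). All of these overlapped between levels. Dcn averaged 7188 ± 1143 in distal and 5107 ± 690 in proximal libraries (log2 change 0.49 ± 0.19, adjusted p = 0.132), and Fmod 7683 ± 1328 in distal and 6642 ± 1531 in proximal libraries (log2 change 0.22 ± 0.20, adjusted p = 0.58). Prelp (-0.14 ± 0.28), Podn (-0.31 ± 0.16) and Kera (-0.84 ± 0.44) had negative log2 changes that did not pass. Fibroblast marker sums overlapped on that day, at 53187 to 98688 per kilobase in distal and 60357 to 88996 in proximal libraries, and none of the 6 markers was called. Of the other lists, 1 of 6 osteoblast markers was higher.

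At 21 days 1 gene was higher and 1 lower after distal amputation, against 17.6% of all genes called, 8.22% of them higher and 9.43% lower. Lum had 11430, 11428, 6826 and 13578 in the distal 21 day libraries and 5461, 3442, 5139 and 5839 in the proximal ones. Its groups did not overlap (log2 change 1.11 ± 0.20, adjusted p = 0.000842, 2.15-fold higher). Podn had 56, 62, 50 and 69 in distal libraries and 85, 104, 131 and 87 in proximal ones, again without overlap (log2 change -0.76 ± 0.16, adjusted p = 0.00225). Both calls held in every alternative setting that was run. None of the 6 fibroblast markers was called on that day. Of the others, 1 of 4 tenocyte, 1 of 5 chondrocyte and 2 of 5 erythroid markers were higher and 2 of 6 keratinocyte markers lower. The part of these in the calls was not tested.

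Groups did not overlap for 4 of the 10 genes at 21 days, as for 18.8% of all genes. Besides Lum and Podn these were Aspn and Ogn, which lay in opposite directions and did not pass. Aspn was at 2576, 2125, 1764 and 2404 in distal libraries and at 3193, 2994, 3319 and 3003 in proximal ones (log2 change -0.51 ± 0.19, adjusted p = 0.0633). Ogn was at 480, 505, 492 and 582 in distal libraries and at 379, 224, 436 and 342 in proximal ones (log2 change 0.61 ± 0.26, adjusted p = 0.103). Both genes adjoin Omd, whose groups overlapped (log2 change 0.17 ± 0.30). Kera (-1.17 ± 0.44, adjusted p = 0.0687) and Prelp (-0.68 ± 0.28, adjusted p = 0.097) had negative log2 changes, and Bgn (0.14 ± 0.09), Dcn (0.19 ± 0.19) and Fmod (0.31 ± 0.20) small positive ones, none of which passed. Scaling to table totals put 5 genes past the threshold, adding Aspn (-0.65), Kera (-1.31) and Prelp (-0.82), 1 higher and 4 lower, while the median of all genes moved to -0.19 and Bgn to 0.00.

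Between 12 and 14 days after distal amputation most of the family rose. Of the 10 genes 7 were higher at 14 days and none lower, all 10 changes were positive, and their median was 0.81 against 0.01 over all genes. Of all genes 19.4% were called, 11.2% higher and 8.12% lower. Groups did not overlap for 6 genes, as for 20.7% of all genes. The chromosome 13 genes had the largest changes. Omd averaged 1874 ± 326 at 14 days and 500 ± 248 at 12 days (log2 change 2.03 ± 0.30, adjusted p = 8.16e-05, 4.09-fold). Ogn averaged 1111 ± 379 at 14 days and 298 ± 122 at 12 days (1.92 ± 0.26, adjusted p = 3.36e-05, 3.78-fold), and Aspn 6104 ± 1487 at 14 days and 1708 ± 507 at 12 days (1.85 ± 0.19, adjusted p = 2.4e-06, 3.61-fold). Ecm2, beside them, was at 536 ± 132 at 14 days and 211 ± 64.9 at 12 days (log2 change 1.36, called).

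Lum followed with 22619 ± 3506 at 14 days and 9577 ± 2284 at 12 days (log2 change 1.26 ± 0.20, adjusted p = 0.000196), and Bgn with 14557 ± 519 at 14 days and 7792 ± 934 at 12 days (0.91 ± 0.09, adjusted p = 1.44e-06). None of their 14 day libraries overlapped a 12 day one. Fmod was higher by 0.70 ± 0.20 (adjusted p = 0.0179), a call that ended without replicate 2 (0.64) or 4 (0.61) of distal 12 days or replicate 4 of distal 14 days (0.60), with adjusted p between 0.0528 and 0.0615. Podn was higher by 0.44 ± 0.16 (adjusted p = 0.0486), with overlapping libraries. That Podn call ended without distal 12 day replicate 2, 3 or 4 or distal 14 day replicate 1, 3 or 4 (0.37 to 0.46) and in 6 of the 9 other settings. Prelp (0.63 ± 0.28, adjusted p = 0.118), Kera (0.58 ± 0.44, adjusted p = 0.39) and Dcn (0.50 ± 0.19, adjusted p = 0.0648) did not pass. In the same libraries 4 of 6 fibroblast markers were higher at 14 days, with sums of 53187 to 98688 per kilobase at 14 days and 26772 to 45285 at 12 days. Of 6 keratinocyte markers 2 were lower, with sums of 97720 to 150936 at 14 days and 176492 to 212386 at 12 days, and 2 of 4 tenocyte, 2 of 6 osteoblast and 1 of 5 chondrocyte markers were higher. The part of these shifts in the rise was not tested.

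After proximal amputation Podn was the 1 gene called in the same interval, at 112 ± 13.7 at 14 days and 168 ± 24.5 at 12 days (log2 change -0.58 ± 0.16, adjusted p = 0.0135), against 15.2% of all genes called, 7.35% higher and 7.84% lower. Without proximal 12 day replicate 3, at 205 the highest Podn library, the change was -0.49 (adjusted p = 0.053). Aspn had 5686 ± 888 at 14 days and 8287 ± 1188 at 12 days without overlap, and did not pass (-0.55 ± 0.19, adjusted p = 0.0519). Groups did not overlap for 2 genes, as for 18.1% of all genes. Without proximal 14 day replicate 1 Aspn passed, which made 2 genes. Between these proximal groups 4 of 5 endothelial and 2 of 6 osteoblast markers were higher at 14 days and 1 of 6 keratinocyte markers lower. No marker of the other lists was called. The part of these shifts was not tested.

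**Figure D3:**
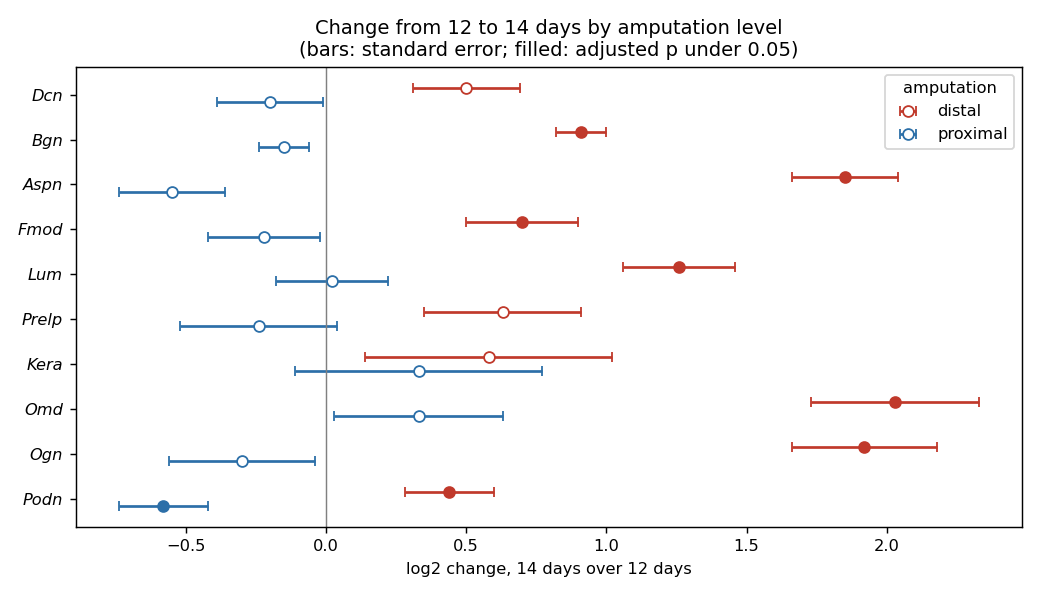
Log2 change of each gene at 14 days over 12 days (points) with its standard error (bars) after distal (red) and proximal (blue) amputation, filled where the limma adjusted p is under 0.05. The distal points all lie right of 0, up to 2.03 for Omd, while the proximal points lie between -0.58 for Podn and 0.33 for Kera and Omd.

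Whether distal and proximal digits differed in their 14 over 12 day change was tested directly. It was positive for all 10 genes and called for 7, with a median of 1.04 against 0.03 over all genes, where 11.7% of genes were called, 6.61% positive and 5.08% negative. Aspn had the largest difference, 2.40 ± 0.27 on the log2 scale (adjusted p = 1.84e-05), followed by Ogn at 2.22 ± 0.36 (adjusted p = 0.00058) and Omd at 1.71 ± 0.42 (adjusted p = 0.0109). Lum (1.24 ± 0.28, adjusted p = 0.0068), Bgn (1.06 ± 0.12, adjusted p = 2.12e-05) and Podn (1.02 ± 0.22, adjusted p = 0.00446) were called too. Fmod passed narrowly (0.92 ± 0.29, adjusted p = 0.0402). Its call ended with median-ratio factors (adjusted p = 0.0523) and without distal 12 day replicate 2 or 4, distal 14 day replicate 2, 3 or 4, proximal 12 day replicate 1 or 3, or proximal 14 day replicate 1, 2 or 4 (0.78 to 0.93). Prelp (0.87 ± 0.40, adjusted p = 0.165), Dcn (0.70 ± 0.27, adjusted p = 0.0913) and Kera (0.24 ± 0.62, adjusted p = 0.855) did not pass. Markers called in the same test were all positive: Pdgfra (0.60), Pdgfrb (1.05) and Col3a1 (1.28) of 6 fibroblast markers, and Scx (0.74) and Mkx (1.02) of 4 tenocyte markers. Their part in the result was not tested.

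Between 14 and 21 days genes of the family fell after both amputations. After distal amputation all 10 genes were lower at 21 days, with a median of -1.19 against -0.04 over all genes, where 34.8% of genes were called and 21.5% lower. Libraries did not overlap for 8 genes, as for 31.0% of all genes. Fmod fell by 1.64 on the log2 scale, to 2492 ± 564 at 21 days against 7683 ± 1328 at 14 days (adjusted p = 3.08e-06). Bgn was at 6014, 5558, 6228 and 5283 at 21 days, below every 14 day library, and its change of -1.34 ± 0.09 had the smallest p of all 15055 genes (adjusted p = 3.06e-09). Aspn (-1.44 ± 0.19), Omd (-1.40 ± 0.30), Lum (-1.10 ± 0.20), Prelp (-1.10 ± 0.28), Ogn (-1.05 ± 0.26) and Podn (-0.60 ± 0.16) were also lower. Kera (-1.28 ± 0.44, adjusted p = 0.0276) and Dcn (-0.56 ± 0.19, adjusted p = 0.0232) had overlapping libraries. The Kera call ended without distal 14 day replicate 1 or 4 or distal 21 day replicate 1 or 3 (-0.97 to -1.18), in a fit of only the groups compared (adjusted p = 0.0724) and with limma-voom quality weights (-1.24, adjusted p = 0.0678). The Dcn call ended without distal 14 day replicate 1, 2 or 4 or distal 21 day replicate 3 (-0.37 to -0.55), and in the fit of only the groups compared (adjusted p = 0.0509).

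After proximal amputation 6 genes were lower at 21 than at 14 days and none higher, against 28.7% of all genes called, 12.5% higher and 16.3% lower. Scaled to table totals, 3015 genes were called higher and 1563 lower in that comparison, against 1876 higher and 2452 lower as deposited, and the median of all genes moved to 0.11. Libraries did not overlap for these 6, as for 25.4% of all genes. Bgn averaged 5248 ± 499 at 21 days and 14116 ± 496 at 14 days, and its change of -1.43 ± 0.09 again had the smallest p of all genes (adjusted p = 7.65e-10). Fmod averaged 2001 ± 455 at 21 days and 6642 ± 1531 at 14 days (-1.73 ± 0.20, adjusted p = 2.54e-06). Ogn (-1.25 ± 0.26), Lum (-1.20 ± 0.20), Omd (-0.87 ± 0.30) and Aspn (-0.85 ± 0.19) were the other called genes, and the Omd call ended without proximal 14 day replicate 1, 3 or 4 or proximal 21 day replicate 2 (-0.63 to -0.86). All 10 changes were negative, with a median of -0.91 against 0 over all genes. For the 21 over 14 day change, the difference between distal and proximal digits was called for none of the 10 genes with limma (1 at an unadjusted p under 0.05, Aspn at -0.59 ± 0.27), nor in any alternative fit, against 1.90% of all genes called, 1.00% positive and 0.897% negative. Markers of many cell types changed in the same interval. Between 14 and 21 days 5 of 6 fibroblast, 6 of 6 osteoblast, 3 of 4 tenocyte, 5 of 5 endothelial, 5 of 5 osteoclast and 4 of 5 macrophage markers were lower after distal amputation. After proximal amputation 4 of 6 fibroblast, 5 of 6 osteoblast, 3 of 4 tenocyte, 5 of 5 endothelial, 2 of 5 osteoclast and 1 of 5 macrophage markers were lower. Keratinocyte markers were higher for 3 of 6 after distal and 1 of 6 after proximal amputation, and of 5 chondrocyte markers 1 was higher and 1 lower after distal and 2 were lower after proximal amputation. Fibroblast sums were 18633 to 24741 per kilobase at distal 21 days and 14481 to 22914 at proximal 21 days, and the part of these shifts was not tested.

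Over the whole interval, after distal amputation 3 genes differed between 21 and 12 days, against 23.8% of all genes, with 8.81% higher and 15.0% lower. Ogn was higher at 515 ± 46.0 at 21 days and 298 ± 122 at 12 days (log2 change 0.87 ± 0.26, adjusted p = 0.0174). Leaving out distal 12 day replicate 1 (0.67, adjusted p = 0.0752) or 4 (0.76, adjusted p = 0.0579) ended that call. Fmod (-0.94 ± 0.20, adjusted p = 0.00192) and Bgn (-0.43 ± 0.09, adjusted p = 0.00091) were lower. The libraries of these 3 genes did not overlap, as for 23.9% of all genes, and without distal 12 day replicate 2 the count was 5. After proximal amputation 7 genes were lower at 21 than at 12 days, against 29.0% of all genes called and 17.0% lower. They were Fmod (-1.95 ± 0.20), Bgn (-1.58 ± 0.09), Ogn (-1.56 ± 0.26), Aspn (-1.40 ± 0.19), Lum (-1.18 ± 0.20), Prelp (-0.80 ± 0.28) and Podn (-0.73 ± 0.16). The Prelp call ended without proximal 12 day replicate 2 or 3 or proximal 21 day replicate 1 or 2 (-0.62 to -0.74). Libraries did not overlap for 6 genes, as for 27.7% of all genes. Between the same days 4 of 6 fibroblast, 4 of 6 osteoblast, 3 of 4 tenocyte, 4 of 5 macrophage, 2 of 5 osteoclast, 1 of 5 endothelial and 1 of 5 chondrocyte markers were lower, and 1 chondrocyte marker was higher. After distal amputation 3 of 6 fibroblast, 3 of 6 osteoblast, 3 of 5 endothelial, 2 of 5 macrophage and 5 of 5 osteoclast markers were lower and 1 of 5 chondrocyte markers higher. The part of these shifts was not tested.

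For 5 genes the 21 over 12 day change was more positive after distal than after proximal amputation, and for none less, against 14.8% of all genes called and 7.42% in each direction. This test shares its 12 day libraries with that of the 14 over 12 day change. The differences were 2.42 ± 0.36 for Ogn (adjusted p = 0.000143), 1.81 ± 0.27 for Aspn (adjusted p = 0.000113), 1.35 ± 0.28 for Lum (adjusted p = 0.00256), 1.16 ± 0.12 for Bgn (adjusted p = 3.79e-06) and 1.01 ± 0.29 for Fmod (adjusted p = 0.0201). Omd (1.17 ± 0.42, adjusted p = 0.0634) and Podn (0.57 ± 0.22, adjusted p = 0.0833) did not pass. The median of the 10 genes was 1.08, against -0.01 over all genes. Of the markers, Pdgfrb (1.20), Col3a1 (1.38), Scx (1.58), Acan (2.61) and Col10a1 (4.53) were called in the same test, and their part in the result was not tested.

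The summed level of the 10 genes per kilobase averaged 8664 ± 1558, 19203 ± 2312 and 8506 ± 1611 at 12, 14 and 21 days after distal amputation. After proximal amputation it averaged 15017 ± 1060, 13264 ± 1130 and 6117 ± 835. The makeup of that sum differed between levels, a description chosen after its values were seen and not tested. Lum made up 41.8% to 55.8% of it in the 12 distal libraries and 28.1% to 36.7% in the 12 proximal ones, without overlap. Aspn made up 6.69% to 14.8% in the distal libraries and 15.9% to 28.5% in the proximal ones, also without overlap. With the days pooled, the shares of the other 8 genes overlapped between levels. Bgn lay at 8.71% to 16.4% in distal and 11.9% to 19.8% in proximal libraries. Dcn lay at 5.84% to 12.3% in distal and 5.96% to 14.6% in proximal libraries. Within single days some of these shares did not overlap. At 14 days Bgn made up 11.3% to 14.5% in distal and 16.1% to 18.8% in proximal libraries. At 12 days Dcn made up 8.03% to 12.3% in distal and 5.99% to 7.49% in proximal libraries. Lower in distal libraries without overlap were also Ogn at 12 days, Podn at 14 and 21 days, and Prelp and Kera at 21 days. The shares of Fmod and Omd overlapped on each day. Shares of the same sum are tied together, so a higher level of Lum alone lowers the shares of the other genes. At 14 days Aspn averaged 2593 ± 632 per kilobase in distal and 2415 ± 377 in proximal libraries. Bgn averaged 2387 ± 85.1 in distal and 2315 ± 81.3 in proximal libraries. Their lower distal shares on that day therefore do not mean lower levels of these genes.

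**Figure D4:**
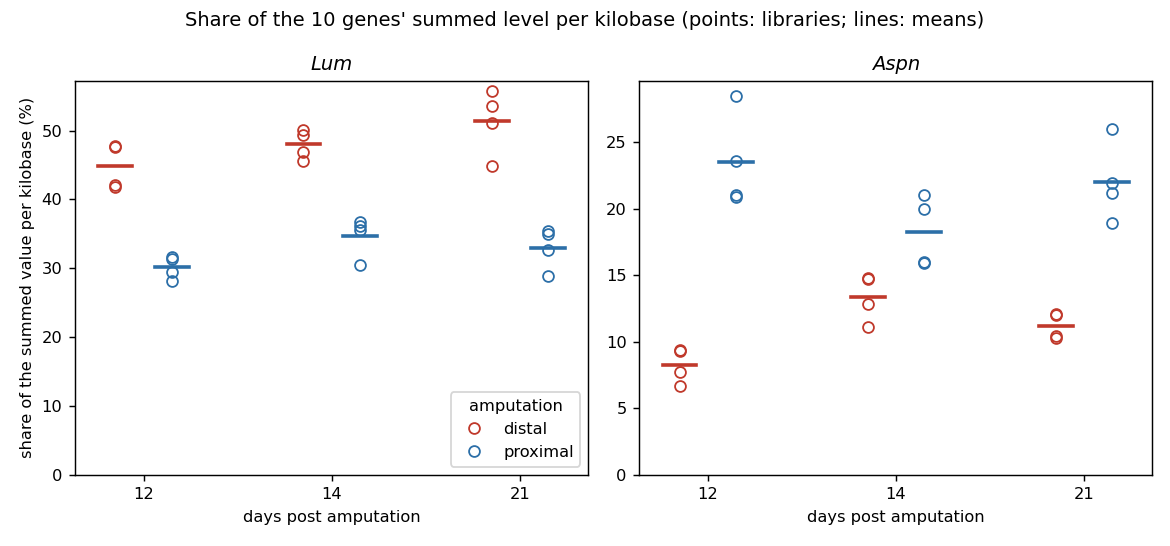
Share of the 10 genes' summed value per kilobase taken by Lum (left) and Aspn (right), in percent, in each library (points) with group means (lines), by days post amputation (spaced evenly) for distal (red) and proximal (blue) amputation. All distal libraries lie at or above 41.8% for Lum and at or below 14.8% for Aspn, and all proximal ones at or below 36.7% for Lum and at or above 15.9% for Aspn.

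How alike the genes were over the 24 libraries is given as a description, since the libraries share groups and normalisation. Of the 45 pairs, Pearson's r of log2 values was above 0 for 44, with a median of 0.60 and a range of -0.01 to 0.91. After group means were removed, the median was 0.25 and the range -0.57 to 0.69. The pair most alike was Bgn and Fmod (0.91 over all libraries, 0.16 within groups), which lie on different chromosomes. On chromosome 13, Aspn and Ogn had r = 0.86 (0.69 within groups), Omd and Ogn 0.81 (0.52) and Aspn and Omd 0.71 (0.55). On chromosome 10, Dcn and Lum had 0.77 (0.64 within groups), while Lum and Kera had 0.19 (0.41). Prelp and Podn had 0.79 and Lum and Podn -0.01. By the same measure, the genes most like the mean of the 10 were Ccdc80 (r = 0.94), then Gulp1, Srpx, Sgce and Pdgfrb (0.93 each). Within groups, against the plain mean of log2 values, r was 0.59 for Ccdc80, 0.47 for Gulp1, 0.76 for Srpx, 0.74 for Sgce and 0.42 for Pdgfrb. Ccdc80 averaged 1864 ± 225, 3916 ± 204 and 1827 ± 200 at 12, 14 and 21 days after distal amputation and 3807 ± 178, 3456 ± 692 and 1644 ± 378 after proximal amputation. For single genes the nearest, with r within groups given second, were Pkd2 for Bgn (0.98, 0.45), Tcf4 for Aspn (0.96, 0.59) and Emilin1 for Fmod (0.95, 0.76). Next came Casc4 for Lum (0.93, 0.76), Pamr1 for Podn (0.93, 0.53), Fndc1 for Ogn (0.91, 0.51) and Ap1s2 for Omd (0.89, 0.75). The last were Dph7 for Prelp (0.89, 0.8), Lsamp for Kera (0.83, 0.7) and Adamtsl3 for Dcn (0.81, 0.71).

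Genes of binding partners, of sugar chain assembly, of processing enzymes and of other matrix proteins were followed in 7 lists. Between levels 9.25% of all genes were higher and 11.0% lower at 12 days, 3.06% higher and 2.32% lower at 14 days, and 8.22% higher and 9.43% lower at 21 days. A list of 14 fibrillar, fibril-associated and type VI collagens held the main binding partners, among them the fibroblast markers Col1a1 and Col3a1. Of the 14, 10 were lower and none higher at 12 days after distal against proximal amputation, with a median of -1.01. Col6a1 (-1.21 ± 0.12), Col6a2 (-1.18 ± 0.13) and Col5a1 (-1.14 ± 0.14) had the smallest adjusted p. None of the 14 was called at 14 days, and 4 were higher at 21 days, led by Col5a2 (0.62 ± 0.12, adjusted p = 0.00184). Their 14 over 12 day change was more positive after distal amputation for 7, led by Col5a2 (1.33 ± 0.18, adjusted p = 7.59e-05), against 6.61% of all genes. Col5a2 averaged 19715 ± 1683, 45734 ± 6540 and 16372 ± 1937 at 12, 14 and 21 days after distal amputation and 38802 ± 4245, 35616 ± 1894 and 10682 ± 1668 after proximal amputation.

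Enzymes that build chondroitin and dermatan sulfate chains were measured for 22 genes. At 12 days 7 were lower and 1 higher after distal against proximal amputation, at 14 days 2 were higher, and at 21 days 6 were higher. The list's median log2 change was -0.22, 0.26 and 0.13 on these days, against -0.03, 0 and -0.05 over all genes. Chpf, the chondroitin polymerising factor, was lower at 12 days (-0.63 ± 0.10, adjusted p = 0.00014) and higher at 14 days (0.40 ± 0.10, adjusted p = 0.0257), and Xylt2, which starts the chains, was lower at 12 days (-0.54 ± 0.09, adjusted p = 0.000172). For 11 of the 22 the 14 over 12 day change was more positive after distal amputation, led by Chpf (1.03 ± 0.14, adjusted p = 0.000119). Among all genes 6.61% were called positive in that test. Of 8 genes of keratan sulfate chains and tyrosine sulfation, 1 was lower at 12 days, where 11.0% of all genes were lower, none was called at 14 days, and 3 were higher at 21 days, among them the tyrosylprotein sulfotransferase gene Tpst2 (0.61).

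Among 10 proteases and enhancers that act on these proteoglycans or their collagens, 3 were lower and 2 higher at 12 days after distal against proximal amputation. Mmp14 (-0.94 ± 0.12, adjusted p = 1.24e-05) and Mmp2 (-0.84 ± 0.13, adjusted p = 8.5e-05) were lower and Mmp3, stromelysin-1, was higher (2.13 ± 0.57, adjusted p = 0.0115). At 14 days Pcolce, which speeds procollagen cleavage, was higher (0.86 ± 0.18, adjusted p = 0.011). At 21 days 2 were higher and 3 lower, with Mmp3 at -2.05 ± 0.57 (adjusted p = 0.0173) and Mmp13, collagenase-3, at -1.75 ± 0.44 (adjusted p = 0.00918). Of 14 growth factors and receptors, 4 were lower and 2 higher at 12 days. Tgfb3, a TGF-beta ligand, averaged 530 ± 130 in distal and 1916 ± 327 in proximal libraries (-1.87 ± 0.15, adjusted p = 5.81e-08), and Met, the receptor of hepatocyte growth factor to which decorin can bind, was higher (0.78 ± 0.09, adjusted p = 2.25e-06). Bmp4 was the 1 gene of that list called at 14 days (0.62 ± 0.13, adjusted p = 0.0102), and 2 were higher and 1 lower at 21 days.

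Other proteoglycan core proteins did not share one direction. Of 15, 4 were lower and 2 higher at 12 days after distal against proximal amputation, 2 were higher at 14 days, and 5 were higher and 1 lower at 21 days. Beside them stand 11.0% of all genes lower and 9.25% higher at 12 days, 3.06% higher at 14 days, and 8.22% higher and 9.43% lower at 21 days. Srgn, the serglycin gene of blood and mast cell granules, averaged 313 ± 47.0 in distal and 101 ± 30.7 in proximal 12 day libraries (1.65 ± 0.25, adjusted p = 7.04e-05). Acan, the cartilage gene of aggrecan and also a chondrocyte marker, was lower at 12 days (-1.65 ± 0.43, adjusted p = 0.00879). At 21 days Vcan, the versican gene, averaged 1611 ± 107 in distal and 1029 ± 187 in proximal libraries (0.66 ± 0.11, adjusted p = 0.000432), and the glypican gene Gpc3 544 ± 89.7 in distal and 246 ± 17.9 in proximal libraries (1.13 ± 0.16, adjusted p = 7.17e-05). Of 6 measured leucine-rich repeat matrix genes outside the 10, Ecm2 alone was called between levels, at 12 days.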

How the data were processed

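RNA was measured by sequencing of total RNA depleted of ribosomal RNA. The submitters' processing notes name STAR 2.5.4b, featureCounts 1.6.3 (Subread), cutadapt and build mm10. Although whole, the deposited values were taken as a score, that is, expression normalised by the authors: over 9650 genes above 100 in every library, 1 direction across libraries varied 6.71 times less than counting noise. No label or header records that step, depth is unknown, and p-values may be too small. Log2(value + 1), which understates changes of low genes, was fitted with limma 3.58.1 (R 4.3.3; lmFit, eBayes with trend) on 24 libraries and 6 group means, with Benjamini-Hochberg adjustment over 15055 genes and no filter. Errors of changes are standard errors, others SDs. Calls are adjusted p under 0.05 in 12 comparisons. The code was tested on simulated data. Members and lists were chosen with earlier results of these data known. All 10 members are named, with up to 3 genes per list and comparison by smallest adjusted p, and genes most alike by Pearson correlation of log2 values; other names were chosen after their values were seen. Alternatives were median-ratio factors, table totals, pseudocounts of 0.5 and 8, limma-voom weights, a filter (1 per 1e+06 in 4 libraries), the groups compared, a replicate block, the least-spread direction as covariate, and each library left out.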

Additional observations from a re-analysis of the deposited data

Results flagged for a closer look

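Single libraries stood apart from the other 3 of their group in 2 of 60 groups of values tested. Omd was at 380 in proximal 21 day replicate 2, with the others at 705 to 752. Podn was at 205 in proximal 12 day replicate 3, with the others at 153 to 159. Chance flags about 1 in 20 such groups.

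The change over time differed between distal and proximal amputation by the test of the difference itself. From 12 to 14 days the difference on the log2 scale was 2.40 for Aspn, 2.22 for Ogn, 1.71 for Omd, 1.24 for Lum, 1.06 for Bgn, 1.02 for Podn and 0.92 for Fmod. From 12 to 21 days it was 2.42 for Ogn, 1.81 for Aspn, 1.35 for Lum, 1.16 for Bgn and 1.01 for Fmod. Both sets use the same 12 day libraries.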

How the results depend on the processing

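Of 120 results (10 genes in 12 comparisons) 56 were called. Of these, 51 stayed called in all 9 other settings and 44 with each library left out, and no called result changed sign. Of the 64 others, 15 were called in some alternative. In fits of only the groups compared, 2 genes were called between levels at 14 days and 2 in the proximal change from 12 to 14 days, against 1 each. Table totals gave 5 between levels at 21 days, against 2, and 2 in that proximal change. Table totals also moved the median of all genes, to -0.19 between levels at 21 days, 0.11 for proximal 21 against 14 days, -0.20 for the difference from 14 to 21 days and -0.11 for that from 12 to 21 days. All genes called between levels then split into 845 higher and 1697 lower at 12 days (against 1392 and 1661) and 627 higher and 3559 lower at 21 days (against 1237 and 1419). They split into 3015 and 1563 for proximal 21 against 14 days (against 1876 and 2452), 613 and 1586 for proximal 14 against 12 days (against 1107 and 1181) and 675 and 2607 for distal 21 against 12 days (against 1326 and 2258). In the differences they split into 888 and 432 from 12 to 14 days (against 995 and 765), 91 and 650 from 14 to 21 days (against 151 and 135) and 595 and 1374 from 12 to 21 days (against 1117 and 1117). Median-ratio factors gave 1579 and 1031 between levels at 21 days, 2742 and 2758 for distal 21 against 14 days (against 1996 and 3238), 1831 and 1937 for distal 21 against 12 days, and 266 and 103 in the difference from 14 to 21 days. The cause was not tested.

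With each library left out, the genes called numbered 5 to 7, 1 and 2 to 3 between levels at 12, 14 and 21 days. They numbered 5 to 8, 8 to 10 and 2 to 5 for distal 14 against 12, 21 against 14 and 21 against 12 days, and 0 to 2, 5 to 6 and 6 to 8 for the same proximal changes. The differences from 12 to 14, 14 to 21 and 12 to 21 days gave 6 to 7, 0 and 5 to 6.

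Values that changed sign all belonged to results that were not called. Under table totals these were Bgn between levels at 21 days (0.00), Lum in the proximal change from 12 to 14 days (-0.07), and Bgn (-0.06), Fmod (-0.06) and Lum (-0.05) in the difference from 14 to 21 days. With each library left out in turn the values crossed 0 in these results. Between levels at 14 days Aspn lay between -0.03 and 0.25 and Prelp between -0.36 and 0.06, and at 21 days Omd between -0.07 and 0.36. For distal 21 against 12 days Dcn lay between -0.18 and 0.13 and Lum between 0.00 and 0.37, and for proximal 14 against 12 days Lum between -0.06 and 0.09. In the differences, Kera lay between -0.10 and 0.66 (12 to 14 days), between -0.74 and 0.02 (14 to 21 days) and between -0.42 and 0.22 (12 to 21 days), and Fmod between -0.05 and 0.25 and Lum between -0.06 and 0.31 (14 to 21 days).

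Replicate numbers showed no pairing of the libraries in the median. Over 60 same-numbered pairs the correlation of deviations had a median of 0.02 (-0.46 to 0.70), against -0.01 (-0.40 to 0.33) for 180 other pairs. The highest same-numbered value lay above every other pair, and whether some same-numbered libraries share an animal or a batch was not tested. With a replicate block, Fmod in the difference from 12 to 14 days (0.92, adjusted p = 0.0527) and Podn for distal 14 against 12 days (0.44, adjusted p = 0.0635) were not called. Depth is unknown, so no counting error was given.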
